A study of Mus musculus with 4 samples.

Results

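The regions described here are stretches of open liver chromatin called in both mutant libraries and in neither wild-type library. They lay over 1 kb from the ends of protein-coding genes. They were found by merging the peaks of 4 ATAC-seq lists wherever peaks overlapped or touched, which gave 38853 regions. A region was kept when it held a peak of both PA libraries and of neither WT library and lay over 1 kb from every end of a protein-coding gene. The members were thus chosen by the peak calls, and the calls, the gap to WT peaks and the place in the PA lists are given as descriptions without a test. There were 1138 members, out of 1315 regions called in both PA libraries alone, and the other 177 of those lay at a gene end. Of the 28282 regions away from gene ends, 4.02% were members, and 2.27% (641 regions) were WT-only, with a peak in WT 1 and WT 2 and none in PA 1 or PA 2.

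ATAC-seq cuts open DNA with the Tn5 transposase and reads the cut sites, so a peak marks a place where the DNA was accessible. The PA libraries were 2 livers of mice with the genotype hypomorphic Pcca-/- (A138T), a model of propionic acidemia, and the WT libraries were 2 livers of wild-type mice. All 4 mice were females of 11 weeks on the FVB background and ate standard chow, and each library was made by the Omni-ATAC procedure from 20 mg of frozen liver. The series design calls the replicates biological. How the A138T form is expressed in these mice is not stated in the labels.

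Pcca encodes the alpha subunit of propionyl-CoA carboxylase, the mitochondrial enzyme that takes propionyl-CoA from certain amino acids and odd-chain fatty acids towards the citric acid cycle. Without enough of it, propionyl-CoA and its by-products build up, and liver is a main site of this pathway. Open chromatin away from gene ends often holds enhancers, which bind transcription factors and act on genes that can lie far away, but it also holds insulators, unannotated transcript starts and sites of unknown use. The nearest gene is therefore a name for a place and not a known target.

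A few members lay over the start of a RefSeq transcript that begins inside its gene, away from the outer ends, and the sequences of these starts are shown because they are the members whose position gives the clearest annotation. A start window runs from 250 bases before to 50 bases after a transcript start. The 6 shown are the windows of protein-coding genes that a member covered by at least 150 bp and that had the highest places in the PA lists, a choice made with the data in view. The letters are those of the RefSeq reference GRCm38.p6 and not of the FVB mice. Each is written 5′ to 3′ on the strand of its gene, and capitals mark motif matches.
Pnpla6, chr8:3516613-3516912, plus strand: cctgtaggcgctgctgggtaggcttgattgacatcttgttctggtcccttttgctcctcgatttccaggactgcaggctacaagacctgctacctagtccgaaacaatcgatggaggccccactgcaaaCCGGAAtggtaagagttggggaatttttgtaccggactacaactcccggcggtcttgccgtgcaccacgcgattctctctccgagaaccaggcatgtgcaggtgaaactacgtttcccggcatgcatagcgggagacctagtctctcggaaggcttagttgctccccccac
N4bp2l1, chr5:150594476-150594775, minus strand: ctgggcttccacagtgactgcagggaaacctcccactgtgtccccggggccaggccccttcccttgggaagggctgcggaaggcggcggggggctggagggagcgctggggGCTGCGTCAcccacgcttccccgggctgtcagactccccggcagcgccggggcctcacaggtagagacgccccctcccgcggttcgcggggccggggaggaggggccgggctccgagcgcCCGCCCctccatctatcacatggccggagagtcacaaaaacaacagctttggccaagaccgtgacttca
Septin9, chr11:117265996-117266295, plus strand: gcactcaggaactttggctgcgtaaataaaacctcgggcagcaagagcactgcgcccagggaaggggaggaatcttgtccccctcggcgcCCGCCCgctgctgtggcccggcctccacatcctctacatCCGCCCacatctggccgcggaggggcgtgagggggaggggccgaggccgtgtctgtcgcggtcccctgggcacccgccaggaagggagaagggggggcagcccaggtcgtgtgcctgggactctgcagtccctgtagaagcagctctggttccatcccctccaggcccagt
Rgs3, chr4:62619422-62619721, plus strand: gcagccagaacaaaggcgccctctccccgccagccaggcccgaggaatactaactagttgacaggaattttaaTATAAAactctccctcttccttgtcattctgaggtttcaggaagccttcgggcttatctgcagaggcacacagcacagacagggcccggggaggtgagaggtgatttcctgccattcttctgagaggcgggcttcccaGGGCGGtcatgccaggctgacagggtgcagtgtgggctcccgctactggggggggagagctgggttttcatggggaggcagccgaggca
Mark2, chr19:7295398-7295697, minus strand: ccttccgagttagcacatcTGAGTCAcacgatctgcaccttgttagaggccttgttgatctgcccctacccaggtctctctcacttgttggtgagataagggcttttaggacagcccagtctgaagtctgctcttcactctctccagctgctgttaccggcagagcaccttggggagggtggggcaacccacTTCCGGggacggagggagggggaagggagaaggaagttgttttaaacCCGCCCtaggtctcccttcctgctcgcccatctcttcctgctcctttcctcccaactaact
Hip1, chr5:135489180-135489479, minus strand: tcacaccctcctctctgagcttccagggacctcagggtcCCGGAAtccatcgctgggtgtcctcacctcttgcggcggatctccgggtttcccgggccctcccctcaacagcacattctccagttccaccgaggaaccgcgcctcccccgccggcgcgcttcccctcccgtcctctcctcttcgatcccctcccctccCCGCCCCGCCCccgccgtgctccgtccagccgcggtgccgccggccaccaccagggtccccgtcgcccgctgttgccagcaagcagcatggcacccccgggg

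Motifs were searched as exact letters on both strands, with N for any base. The ETS motif CCGGAA was found at base 130 of the Pnpla6 window, counted from 1 at its 5′ end, at base 40 of the Hip1 window and, on the opposite strand, at base 193 of the Mark2 window. The NRF2 motif TGACNNNGC was at base 112 of the N4bp2l1 window, on the opposite strand. The AP-1 motif TGANTCA was at base 20 of the Mark2 window, and the TATA motif TATAAA at base 74 of the Rgs3 window. The GC box GGGCGG was in 5 of the 6 windows, all but Pnpla6, on the strand shown in Rgs3 and on the opposite strand, as CCGCCC, in the other four, and Hip1 had a pair of GC boxes that shared a base. Over all 32619 RefSeq start windows, 15.0% held the ETS motif, 12.4% NRF2, 7.85% AP-1, 13.7% TATA and 35.9% the GC box, so matches in a few windows are a description of their letters and nothing more.

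Pnpla6 encodes neuropathy target esterase, a phospholipase. Its member (chr8:3516405-3516999) stood at 27.8% in PA 1 and 28.3% in PA 2, where 0% is the top and 100% the bottom of a library's peak list, and its nearest peaks in WT 1 and WT 2 were 848 and 809 bp away. Septin9 encodes a cytoskeletal GTP-binding protein. The member at its internal start (chr11:117265923-117266391) stood at 43.0% in PA 1 and 50.3% in PA 2, with gaps of 13587 and 18570 bp to WT 1 and WT 2 peaks. Rgs3 encodes a regulator of G-protein signalling, and its member stood at 39.9% in PA 1 and 65.2% in PA 2. No WT peak lay within 79596 bp of the Rgs3 member. Mark2 encodes a kinase of cell polarity and Hip1 an adaptor of clathrin-coated vesicles. Their members stood lower, at 73.3% and 79.3% in PA 1 and PA 2 for Mark2, and at 52.7% and 80.0% for Hip1.

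Few members lay over a transcript start. A start window of any gene type was overlapped by 38 of the 1074 members on the chromosomes for which windows were used (3.54%, exact 95% interval 2.52 to 4.82), and one of a protein-coding gene by 15 (1.40%, 0.784 to 2.29). For WT-only regions the counts were 23 of 613 (3.75%) and 18 (2.94%, 1.75 to 4.60). For regions called in all 4 libraries they were 1022 of 9413 (10.9%) and 704 (7.48%, 6.96 to 8.03). Regions called in 1 library (247 of 8960, 2.76%, with 105 over a protein-coding start) and regions called in 2 libraries of opposite genotypes or in 3 libraries (285 of 7148, 3.99%, with 149) had shares on either side of the members'. The 38 members overlapped 41 windows, with a median of 8 CpG per window, against 18 in 25 windows of WT-only regions, 18 in 1207 windows of regions called in all 4 libraries and 7 over all start windows. It was 7 in windows of regions called in 1 library and 9 in those of regions called in 2 libraries of opposite genotypes or in 3, so the low value was shared with these. Among the motif shares, AP-1 was in 14.6% of the 41 windows, ETS in 22%, the GC box in 36.6% and CTCF in 9.76%. The 4 windows with CTCF came from 3 members, and the share was 4.29% in windows of regions called in 1 library, 6.97% in those called in 2 of opposite genotypes or in 3 libraries, and 2.44% of all start windows. The other letters searched were forkhead TGTTTAC, HNF4A CAAAGTCCA, C/EBP TTNCGCAA, STAT TTCNNNGAA, the E-box CACGTG, the D-box TTATGTAA, CCAAT, and the HNF1 and glucocorticoid receptor motifs, and each was in 11 or fewer of the 41 windows.

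One member held a microRNA hairpin. It lay on the X chromosome (chrX:136183067-136183478), 10816 bp from an end of Tceal8, stood at 93.4% in PA 1 and 85.1% in PA 2, and covered the hairpin of Mir6383. The mature sequence from RefSeq is shown with its seed, bases 2 to 8, in capitals, because it is the mature microRNA inside a member.
mmu-miR-6383: uAAAGUGCugugucacggaca
Of the 1005 hairpins in the table, others within 5 kb of a member included Mir190a, 799 bp from a member that was assigned to Tln2, a talin gene, and stood at 87.7% in PA 1 and 80.8% in PA 2. A member at the Rtl1 locus (chr12:109595753-109596181, 88.8% in PA 1 and 96.1% in PA 2) lay 365 bp from Mir136, 1154 bp from Mir434 and 2838 bp from Mir127, which belong to an imprinted cluster. Its nearest peaks in WT 1 and WT 2 were 63697 and 63759 bp away. In all, 4 members had a hairpin within 5 kb.

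The lists held 25683 peaks in PA 1 and 29765 in PA 2, against 26280 in WT 1 and 25941 in WT 2, nearly all 400 bp long, and gave no score or read count, so read depth is unknown. The share of peaks over 1 kb from protein-coding gene ends was 64.8% in PA 1 and 68.9% in PA 2, against 65.6% in WT 1 and 65.2% in WT 2. The means were 66.8% ± 2.87 in PA and 65.4% ± 0.293 in WT (SD, n = 2 each), a difference of 1.43 points within the spread of the PA libraries (exact permutation test over the 4 libraries, two-sided, p = 1, where the smallest possible is 0.333). Without PA 2 the difference was -0.604 points. Among hepatocyte markers, peaks at the ends of Ttr and Cps1 were called in all 4 libraries, Hnf4a in PA 2, WT 1 and WT 2, Alb in PA 1 alone and Apoa1 in none. All-library end calls covered 1 of 11 bile duct markers, 3 of 15 liver endothelial, 1 of 13 stellate, 0 of 14 Kupffer cell and 1 of 18 lymphocyte, neutrophil and erythroid markers. Over all protein-coding genes they covered 8924 of 21631 (41.3%). Counted by library, ends of Kupffer cell markers were called for 2 genes in PA 1, 4 in PA 2, 5 in WT 1 and 4 in WT 2. In bulk liver, more cells of a type and more open chromatin per cell cannot be told apart.

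Members stood low in the lists from which they came. The lines were not in genome order, and peaks shared by all 4 libraries stood higher than the rest, but no label or header says by what the authors ordered them. The median place was 82.3% in PA 1 (lowest value 16.4, highest 100) and 82.4% in PA 2 (1.25 and 99.9). WT-only regions away from gene ends had medians of 71.5% in WT 1 and 71.4% in WT 2. Regions called in all 4 libraries had medians of 48.8% in PA 1, 40.5% in PA 2, 45.3% in WT 1 and 48.5% in WT 2. Of the members, 585 (51.4%) stood in the lower 25% of both PA lists and 67 (5.89%) in the upper 50% of both. PA 2 was the longest list, and 449 members (39.5%) had a PA 2 peak past line 25683, where the shortest list ends. With every list held to that length there were 716 PA-only and 872 WT-only regions away from gene ends, so the larger number on the PA side was not seen there, and 689 of the members (60.5%) were kept.

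**Figure D1:**
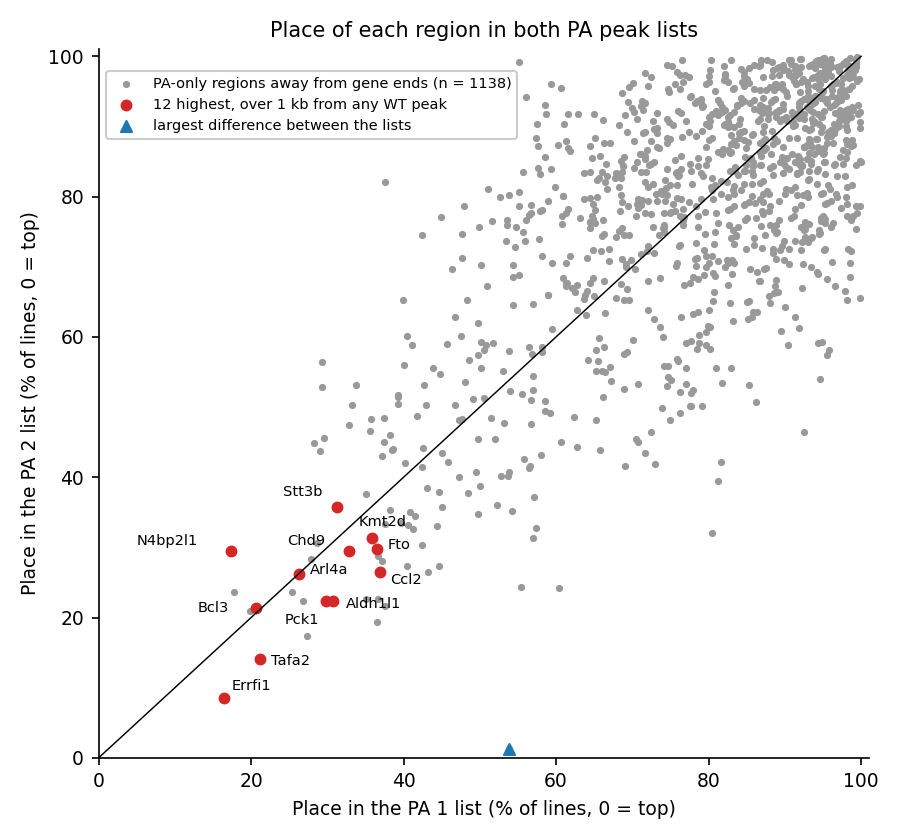
Place of each of the 1138 members in the PA 1 list (x axis) and the PA 2 list (y axis), in percent of lines from the top, with the line of equal place. Most points crowd at the lower ends of both lists (medians 82.3% and 82.4%), the 12 highest are in red, and the triangle marks the member with the largest difference, 53.8% in PA 1 and 1.25% in PA 2.

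The rule asks for PA 1 and PA 2 peaks that overlap or touch, and in most members they covered almost the same bases. Their overlap had a median of 370 bp of about 400, and 1107 members (97.3%) had an overlap of at least 200 bp. In regions called in all 4 libraries the median overlap of the PA 1 and PA 2 peaks was 380 bp. In 1 member the peaks touched without overlap. The places in the lists differed by a median of 8.67 percentage points. The largest difference, 52.5 points, was at chr1:24612548-24612952, 24626 bp upstream of Col19a1, a collagen gene, which stood at 53.8% in PA 1 and 1.25% in PA 2. That member overlaps Gm10222, annotated as a pseudogene.

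The gap from a member to the nearest WT peak follows in part from the rule, and no other kind of region was set beside it. The gap had a median of 16536 bp, 377 members (33.1%) had a WT peak within 10 kb, and 96 (8.44%) were over 100 kb from one. A WT peak lay within 1 kb of 57 members (5.01%) and within 200 bp of 24 (2.11%). The highest members with a WT peak within 1 kb, named after the data were seen, were inside Gm44812, inside Zfp46, a zinc finger gene, and downstream of Snx13, a sorting nexin gene. At Gm44812 the places were 19.8% in PA 1 and 21.0% in PA 2, and the gaps were 198 bp to a WT 1 peak and 235 bp to a WT 2 peak. At Zfp46 the places were 17.8% and 23.7% in PA 1 and PA 2, and the gaps 151 and 95 bp to WT 1 and WT 2. At Snx13 (25.4% in PA 1, 23.7% in PA 2) WT 2 had a peak 24 bp away and WT 1 none nearer than 10280 bp. For these members the neighbouring WT peak lay within about a peak's length, save for WT 1 at Snx13.

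Among members over 1 kb from any WT peak, the 12 that stood highest in both PA lists are described next. The highest was at Errfi1, which encodes a feedback inhibitor of the EGF receptor (chr4:150871611-150872135, 2722 bp downstream of the gene). It stood at 16.4% in PA 1 and 8.55% in PA 2, and the nearest WT 1 and WT 2 peaks were 17256 and 16416 bp away. The other 3 regions within 30 kb of it were 1 called in all 4 libraries, 1 called in PA 1 (22.7%) and WT 2 (10.5%), and 1 called in PA 1 alone at 83.7%. The region called in all 4 libraries stood at 17.6% in PA 1, 7.80% in PA 2, 9.64% in WT 1 and 9.90% in WT 2, so the Errfi1 member was about as high in the PA lists as its constitutive neighbour.

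At Pck1, whose product phosphoenolpyruvate carboxykinase commits carbon to gluconeogenesis, the member lay 5925 bp upstream and at 29.8% and 22.4% in PA 1 and PA 2. All 3 other regions within 30 kb were called in all 4 libraries. The one about 6 kb away stood at 9.76% in PA 1, 1.48% in PA 2, 2.94% in WT 1 and 3.5% in WT 2. The libraries thus shared every call at this locus but the member. Aldh1l1, a folate enzyme of the liver, had a member inside the gene (chr6:90578244-90578647), 20524 bp from an end, at 30.8% in PA 1 and 22.3% in PA 2. Both WT libraries had their nearest peak 26015 bp away.

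Kmt2d, Chd9 and Fto each held a member. Kmt2d encodes a histone methyltransferase of enhancers, and its member (chr15:98872040-98872473) lay inside the gene, 1604 bp from an end and 835 bp upstream of a RefSeq transcript start, at 35.8% in PA 1 and 31.3% in PA 2. WT 1 and WT 2 peaks were 8789 bp away each. A neighbouring region about 9 kb from it was called in all 4 libraries at 29.1% and 32.9% in PA 1 and PA 2, and at 37.2% and 35.7% in WT 1 and WT 2. Chd9, a chromodomain helicase gene, held a member 48787 bp from an end, at 32.9% and 29.5% in PA 1 and PA 2 and 7099 bp from the nearest WT peak. Fto, which encodes an RNA demethylase, held a member at 36.5% and 29.7% in PA 1 and PA 2 (chr8:91381573-91381975). Its nearest neighbour, 2055 and 2054 bp away, was a WT-only region with peaks at 31.7% in WT 1 and 20.8% in WT 2.

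Bcl3 and Ccl2 are genes of inflammatory signalling. Bcl3 encodes a nuclear co-regulator of NF-kB, and its member (chr7:19817684-19818115) lay inside the gene, 4709 bp from an end, at 20.6% in PA 1 and 21.4% in PA 2. WT 1 and WT 2 peaks were 1021 and 1018 bp away, just past the 1 kb limit. The WT peaks belonged to a region that PA 2 shared and PA 1 did not, which stood at 30.3% in PA 2, 23.8% in WT 1 and 19.8% in WT 2. Ccl2 encodes a chemokine that draws monocytes, and its member lay 20069 bp from the gene at 36.9% and 26.5% in PA 1 and PA 2. Neighbouring calls were uneven there. A peak about 8 kb away was called in PA 1, PA 2 and WT 1, and another about 5 kb away in PA 2 and WT 2.

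The remaining 4 of the 12 were at Tafa2, Arl4a, N4bp2l1 and Stt3b. Tafa2 encodes a secreted chemokine-like protein, and its member stood at 21.2% in PA 1 and 14.1% in PA 2 but 105452 bp from the gene, with WT 1 and WT 2 peaks 2669 and 2631 bp away. The Arl4a member, 80049 bp downstream of this small GTPase gene, stood at 26.3% and 26.2% in PA 1 and PA 2, and both peaks covered the same 400 bp. The N4bp2l1 member, whose start is printed above, also had identical PA peaks, at 17.3% in PA 1 and 29.5% in PA 2, and lay 10365 and 10360 bp from WT 1 and WT 2 peaks. A WT-only region was among the 4 regions within 30 kb of it. Stt3b encodes a catalytic subunit of the oligosaccharyltransferase, and its member lay 141523 bp upstream at 31.3% and 35.8% in PA 1 and PA 2.

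**Figure D2:**
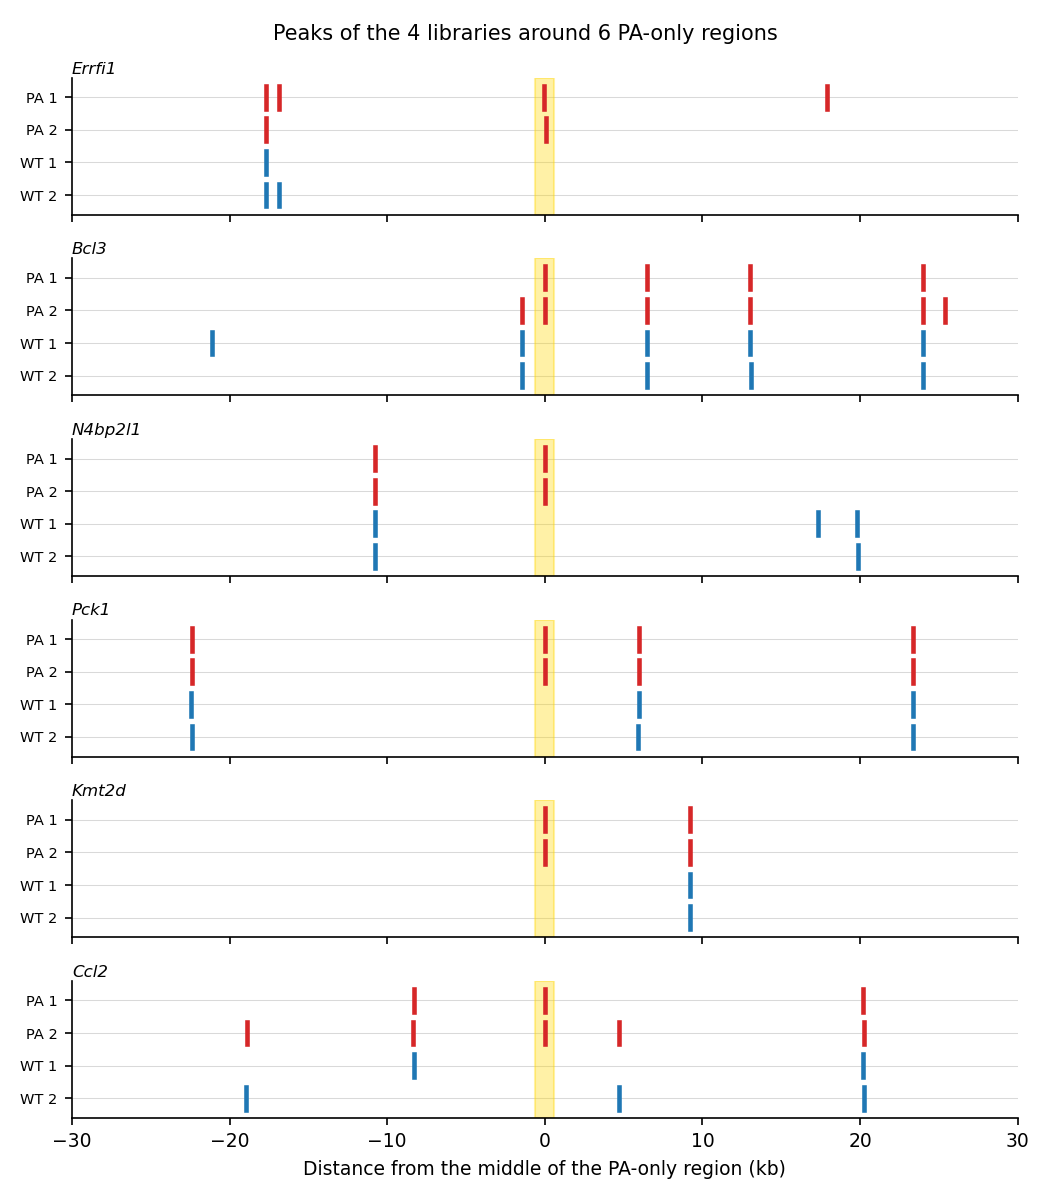
Peaks of PA 1, PA 2, WT 1 and WT 2 within 30 kb of the middle of 6 members named by their nearest gene (x axis in kb from the middle, each bar the middle of a peak, member shaded). Each shaded place has bars in both PA rows and in neither WT row, and at Pck1 the 3 other places have bars in all 4 rows.

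Members near genes of 17 lists of liver pathways, regulators and cell type markers were counted next, by assigning each region to the nearest protein-coding gene end within 50 kb. The lists held 26 members, 3.26% (exact 95% interval 2.14 to 4.74) of the 797 regions away from gene ends that were assigned to list genes. Over all protein-coding genes the share was 3.71% (695 of 18728). WT-only regions were 13 of the 797 near list genes and 442 of the 18728, so their absence from a single list says little. The share near list genes was close to the background, and the intervals cover the counting of regions only.

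Fatty acid oxidation and ketogenesis had 4 members among 55 regions (7.27%, 2.02 to 17.6, an interval that includes the background of 3.71%). None of the 55 was WT-only, against 442 of 18728 over all protein-coding genes. They were at Cd36, a fatty acid uptake receptor, Slc27a2, a very long-chain acyl-CoA synthetase, Acsl1, a long-chain acyl-CoA synthetase, and Acaa1b, a peroxisomal thiolase. The Acaa1b member stood highest, at 37.1% in PA 1 and 28.1% in PA 2, but lay 1020 and 1021 bp from WT 1 and WT 2 peaks. The Cd36 member stood at 52.2% in PA 1 and 36.0% in PA 2, inside the gene at 38944 bp from an end, with WT 1 and WT 2 peaks 13060 and 13029 bp away. The Acsl1 member stood at 65.6% and 59.8% in PA 1 and PA 2, and the Slc27a2 member at 75.9% and 56.9%. Both genes had a peak at a gene end in all 4 libraries.

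The list of fatty acid, triglyceride and cholesterol synthesis also had 4 members, among 74 regions (5.41%). A pair lay downstream of Insig1, a brake on cholesterol synthesis, at 11909 and 39415 bp. The nearer stood at 62.1% and 67.0% in PA 1 and PA 2, and the farther at 84.7% and 97.2%. The farther also overlapped the start window of Gm35055, a long noncoding RNA gene, by 110 bp. Acaca, acetyl-CoA carboxylase, and Me1, malic enzyme, each held a member in the lowest part of the lists, at 97.5% and 95.4% in PA 1 and PA 2 for Acaca and at 98.2% and 86.4% for Me1. The PA 1 and PA 2 peaks of the Me1 member overlapped by 57 bp only.

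Glucose, glycogen and pyruvate metabolism had 3 members among 76 regions (3.95%), at Pck1, described above, at Pdk1, a pyruvate dehydrogenase kinase gene, and inside Pcx, the gene of pyruvate carboxylase. The Pdk1 member was 5365 bp upstream, at 70.3% in PA 1 and 69.7% in PA 2, and 5143 bp from peaks of both WT libraries. The Pcx member stood at 97.8% and 94.9% in PA 1 and PA 2. Ppargc1a, a coactivator of gluconeogenic genes, held a member 137269 bp from its ends, outside the 50 kb limit. That member stood at 75.1% in PA 1 and 53.9% in PA 2, and lay 23793 bp upstream of a Ppargc1a transcript start.

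Bile acid and xenobiotic metabolism had 4 members among 63 regions (6.35%, 1.76 to 15.5) and no WT-only region. They were inside Abcc2 and Abcc3, exporters of the MRP family, inside Cyp7b1, an oxysterol hydroxylase of bile acid synthesis, and upstream of Slco1a4, an organic anion uptake transporter. Abcc3 was highest, at 67.2% in PA 1 and 53.7% in PA 2, 3790 bp from an end and 14597 and 14612 bp from WT 1 and WT 2 peaks. Ends of Abcc3 were called in WT 1 alone. The Slco1a4 member covered the start window of Gm30843, a long noncoding RNA gene, by 300 bp. The Cyp7b1 member (75.9% and 81.7% in PA 1 and PA 2) had a WT 2 peak at 1404 bp and no WT 1 peak within 21916 bp.

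Insulin, growth hormone and sex-biased liver genes had 5 members among 99 regions (5.05%), beside 4 WT-only regions. They included those at Irs2, an insulin receptor substrate, Hao2, a hydroxy acid oxidase, Cyp2a4, a steroid hydroxylase, and Cyp3a44, a cytochrome P450. The Irs2 member stood at 59.2% in PA 1 and 49.1% in PA 2, 44371 bp downstream. The Hao2 member, 21808 bp upstream, stood at 95% in PA 1 and 77.2% in PA 2. The Cyp2a4 member lay 3303 bp upstream at 92.2% and 73.5% in PA 1 and PA 2, and ends of Cyp2a4 were called in PA 1 and PA 2 and in neither WT library. Esr1, the oestrogen receptor, and Prlr, the prolactin receptor, held members more than 50 kb from their ends, at 92.4% and 70.4% in PA 1 and PA 2 for Esr1 and at 92.7% and 89.8% for Prlr. Transcript starts of the same genes were nearer, at 28161 bp for Esr1 and 4434 bp for Prlr. Cyp2a4 belongs to a family of close copies, and how reads shared by copies were counted is not stated.

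The urea cycle and amino acid nitrogen list had 2 members among 69 regions (2.90%). One was inside Slc38a4, a neutral amino acid transporter of liver, at 57.1% in PA 1 and 37.2% in PA 2, with peaks 3208 bp away in WT 1 and 10367 bp away in WT 2. The other was 39810 bp upstream of Asns, asparagine synthetase, at 79.4% and 68.8% in PA 1 and PA 2. The circadian clock list had 1 among 48 regions, 35082 bp upstream of Nfil3, a repressor of the clock's output. This Nfil3 member lay 41 bp downstream of the transcript start of Gm33519, a long noncoding RNA gene. Rora, a nuclear receptor of the clock, held a pair deep inside its gene. They stood at 85.9% and 74.1% and at 80.3% and 81.3% in PA 1 and PA 2.

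Histone acylation enzymes and readers had 2 members among 43 regions (4.65%, 0.568 to 15.8) and no WT-only region.

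No member was assigned to the genes of propionate and branched-chain amino acid breakdown, among 40 regions (0%, exact 95% upper limit 8.81%). A member lay inside Suclg2, a subunit of succinyl-CoA ligase at the far end of that pathway, 65684 bp from an end and thus past the assignment limit. It stood at 92.2% in PA 1 and 67.0% in PA 2. Hepatocyte transcription factors had 0 among 94 regions (upper limit 3.85%) and 2 WT-only regions, although Nfia, a nuclear factor I gene, held a member 218191 bp from its ends. Stress responses (0 of 42) and secreted and acute phase proteins (0 of 31) had none either. Of the marker lists of other liver cells, liver endothelial cells had 1 member among 36 regions, inside Erg, an endothelial transcription factor, at 70.2% in PA 1 and 84.1% in PA 2, and 3 WT-only regions. Bile duct (17 regions), Kupffer (10), stellate (5) and lymphocyte, neutrophil and erythroid markers (5) had no member, and the part of other cell types in the members was not tested.

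**Figure D3:**
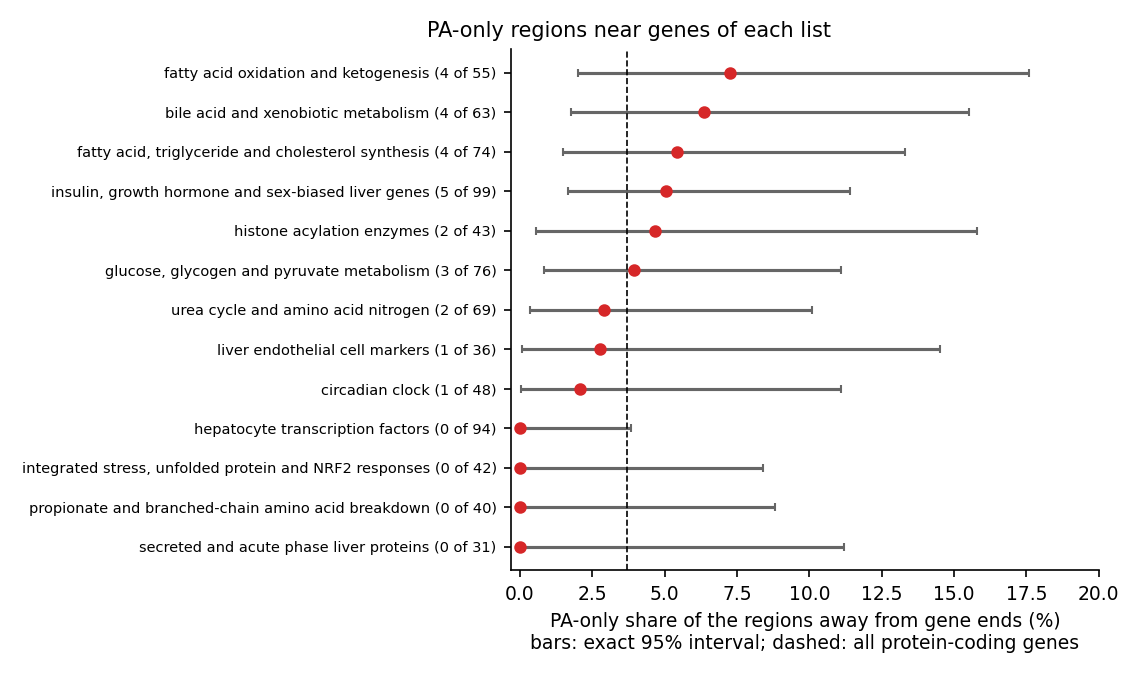
Share of regions away from gene ends that were members, in percent (x axis), for the 13 gene lists with at least 30 such regions (counts in brackets), with exact 95% intervals for the counting of regions and the share over all protein-coding genes, 3.71%, as a dashed line. The points run from 0% in 4 lists to 7.27% for fatty acid oxidation and ketogenesis, and every interval includes the dashed line.

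Calls at the ends of the genes around members were counted as well. Of the 669 protein-coding genes with an assigned member, 357 (53.4%, 49.5 to 57.2) had an end call in every library. The figure was 49.8% (44.9 to 54.6) for genes with a WT-only region, 49.4% (47.9 to 50.8) for genes with a region called in all 4 libraries, and 41.3% over all protein-coding genes, so the genes around members had about the share of genes around other regions. No end call in any library was found for 33.9% (30.3 to 37.7) of the genes with a member. The figure was 36.7% for genes with a WT-only region and 38.9% for genes with a region called in all 4 libraries. It was 37.7% for genes with a region called in 1 library and 48.3% over all protein-coding genes. Examples without one were Cd36, Slc38a4 and Bcl3.

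Members per gene and close pairs of members were counted, without the same counts for other kinds of regions, so no grouping or spread can be read from them. The 695 assigned members fell to 669 genes, of which 644 had 1, 24 had 2 and 1 had 3. The gene with 3 was Minpp1, an inositol polyphosphate phosphatase, with members 8730 bp upstream and 7580 and 35078 bp downstream. They stood at 97.8% and 91.4%, at 63.9% and 63.1%, and at 86.4% and 69.2% in PA 1 and PA 2, and the last lay 712 and 697 bp from WT 1 and WT 2 peaks. Mbd5, a methyl-CpG-binding domain gene, Them7, a thioesterase family gene, Rap1a, a small GTPase gene, and Usp6nl, a GTPase-activating protein gene, were the first by genome position of the 24 genes with 2. In all, 10 neighbouring pairs of members lay within 10 kb of each other, such as the pair downstream of Mbd5 and the pair upstream of Them7.

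Inside protein-coding genes lay 577 members (50.7%, 47.8 to 53.6), against 52.0% of WT-only regions, 51.1% of regions called in all 4 libraries and 50% of regions called in 1 library. Exons and introns cannot be told apart with the gene table used. The members lay inside 537 genes. Fhit, a gene of 1611970 bp that encodes a diadenosine hydrolase, held 4, at places from 66.5% to 78.2% in PA 1 and from 79.2% to 93.3% in PA 2. Arhgap24, Maml3, Rbms3, Snd1 and Usp6nl held 3 each, and apart from Usp6nl (125540 bp) these genes were over 400 kb long.

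Members lay farther from gene ends than the regions set beside them. The median distance to the nearest protein-coding gene end was 31876 bp (quartiles 11422 and 87083), against 22717 bp (8298 and 66845) for WT-only regions, 24191 bp for regions called in all 4 libraries and 27990 bp for regions called in 1 library. More than 50 kb separated 443 members (38.9%, 36.1 to 41.8) from any gene end, against 31.0% (27.5 to 34.8) of WT-only regions, 32.2% (31.3 to 33.1) of regions called in all 4 libraries and 34.6% (33.7 to 35.6) of regions called in 1 library. The intervals of members and of WT-only regions do not overlap, but regions are not replicates and no test was made over them. With lists of equal length the medians were 28746 bp for PA-only and 26808 bp for WT-only regions. The shares over 50 kb were then 36.7% of PA-only and 34.7% of WT-only regions. PA 2, the longest list, also had the largest share of peaks away from gene ends, and its part in the distance was not tested.

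**Figure D4:**
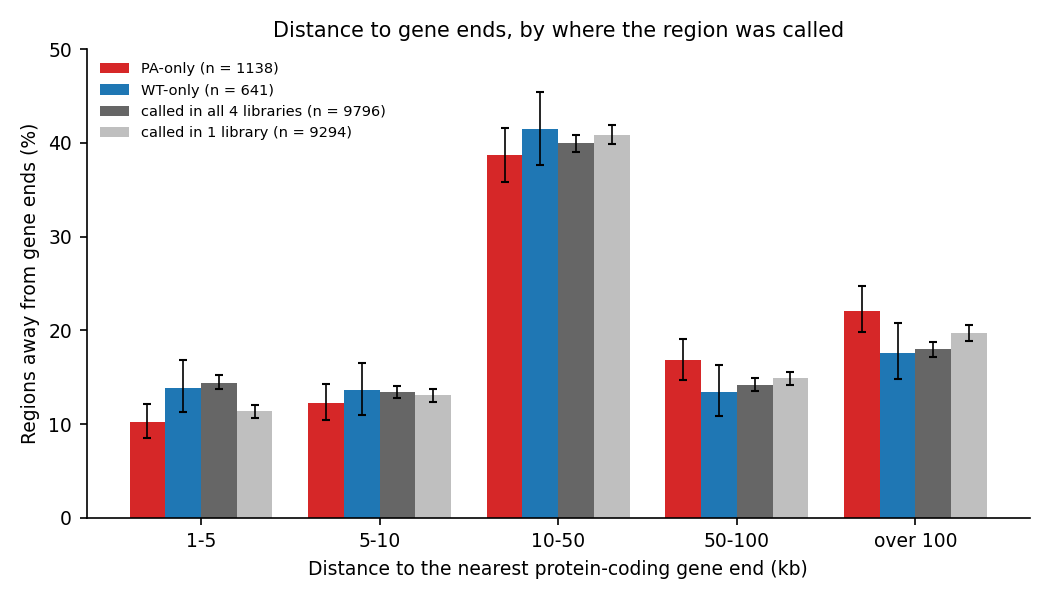
Share of regions away from gene ends, in percent (y axis), by distance to the nearest protein-coding gene end in kb (x axis), for PA-only, WT-only, all-library and 1-library regions, with exact 95% intervals for the counting of regions. Over 100 kb the share was 22.1% of PA-only and 17.6% of WT-only regions, and from 1 to 5 kb it was 10.2% of PA-only and 13.9% of WT-only regions.

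The member farthest from a gene end was 1411516 bp downstream of Cntnap5b, a contactin-associated protein gene, at 62.9% in PA 1 and 91.7% in PA 2. The next were inside Dpp10, a potassium channel accessory gene, at 740936 bp, and inside Fhit at 730944 bp. Transcript starts inside these genes were nearer, 27515 bp away for the Dpp10 member and 22341 bp for the Fhit member. Those farthest from any WT peak were upstream of Grm7, a glutamate receptor gene, with 1155334 bp to WT 1 and 1203725 bp to WT 2, at the Cntnap5b member, with 725500 and 725507 bp, and upstream of Slc5a7, a choline transporter gene, with 681354 and 681291 bp. The Grm7 member stood at 93.2% and 88.2% in PA 1 and PA 2, and the Slc5a7 member at 88.1% and 64.8%.

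The regions around members were compared as well. A region called in all 4 libraries lay within 10 kb of 206 members (18.1%, 15.9 to 20.5), against 23.1% (19.9 to 26.5) of WT-only regions and 18.4% (17.6 to 19.2) of regions called in 1 library. The median gap was 30690 bp for members and 23080 bp for WT-only regions. An end of a RefSeq gene of any type lay within 1 kb of 77 members (6.77%, 5.38 to 8.38), against 7.18% of WT-only regions and 10.5% (9.91 to 11.1) of regions called in all 4 libraries. In these measures the members were nearer to regions called in 1 library than to regions called in all 4.

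Just past the 1 kb limit of the rule were a member 1010 bp from Guca1b, a guanylate cyclase activator gene, at 90% and 80.4% in PA 1 and PA 2, and one 1034 bp from Hs1bp3 at 29.3% and 52.8% in PA 1 and PA 2. Just within it, and so no members, were a region 991 bp from Acy3, an aminoacylase gene, at 31.7% and 25.6% in PA 1 and PA 2, and one 985 bp inside Gria3, a glutamate receptor gene, at 81.3% and 79.0%.

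By chromosome, the share of regions away from gene ends that were members ran from 2.17% (1.38 to 3.24, 23 members) on chromosome 17 to 5.96% (4.62 to 7.55, 64 members) on chromosome 18, against 4.02% over all. On the other chromosomes it lay between 3.30% on chromosome 1 and 5.09% on chromosome 9. Each of those intervals included the overall share.

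**Figure D5:**
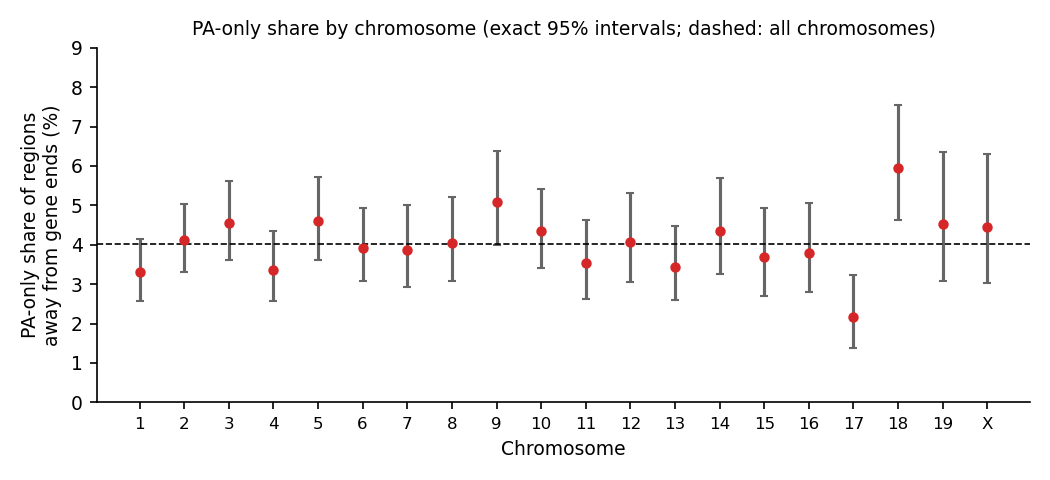
Share of regions away from gene ends that were members, in percent (y axis), by chromosome (x axis), with exact 95% intervals for the counting of regions and the overall share of 4.02% as a dashed line. Chromosome 17 (2.17%) lies below and chromosome 18 (5.96%) above the line, and the intervals of the others reach it.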

How the data were processed

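The authors deposited 1 list of peak positions per library (chromosome, start and end, with no score), so the values used are positions. The submitters' processing notes name HOMER 4.10, bedtools 2.31.0, R 4.1.2, cutadapt 3.5, SAMtools 1.17 and Bowtie2 2.5.1, and the build GRCm38 (mm10). The peak caller, its threshold, read filters and any transposase shift are not stated there or in the labels. A call says that a window passed a threshold, and a deeper library can pass it at more places.

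Groups and replicate numbers came from the sample titles. Overlapping or touching peaks were merged, and a region counted as called in a library with a peak in it. Gene ends were those of 21631 protein-coding genes of the RefSeq table of GRCm38.p6. Each region was assigned to the nearest end within 50 kb. Place was the line number divided by the number of lines. Shares have exact Clopper-Pearson 95% intervals, which cover the counting of regions only. The share of peaks away from gene ends was compared by an exact permutation test over libraries. Merging, the PA-only label, distances to gene ends and gaps to WT 1 peaks were tested on simulated data (Python 3.11.15, pandas 2.3.3, scipy 1.17.1). The assigned gene name and the 50 kb limit were not tested there. Simulated peaks of the same site nearly coincided, and the sites lay well apart. Peaks that touch or barely overlap, and close neighbouring peaks, were therefore not tested either.

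Members, lists and rules were chosen with earlier results of these data known. All 412 genes of the 17 lists were matched. Named were the 12 members highest by the lower of their places in both PA lists among those over 1 kb from any WT peak, members at list genes, the 3 farthest from a gene end, the 3 farthest from a WT peak, the 5 genes with the most assigned members (ties by genome position), and the 2 regions on each side of the 1 kb limit. Members at transcript starts and microRNAs, the largest difference between lists, the highest with a near WT peak, and the TATA, CCAAT and GC box motifs were added after the data were seen. Start windows came from RefSeq (26794 genes), and those of chromosome 18 were not used here. Sequence features over whole regions were planned and not run. Results at 2 of the genes that this rule names are not reported here.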

Additional observations from a re-analysis of the deposited data

How the results depend on the processing

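The number of members was 1138, and from 1022 to 1159 with gene ends at 2 or 5 kb, with ends of every gene type, with merging at 200 bp of overlap, or without members within 1 kb of a WT peak. It was 716 with lists of equal length, and 2027 to 4542 when a library was left out, which loosens the condition by construction. The count at list genes was 20 to 27 under the first 5 settings, 21 with equal lists, and 47 to 113 without a library. The median distance was 40221 bp at 5 kb, which removes the nearest regions, 28746 bp with equal lists, and 28190 to 33306 bp without a library. It was above that of WT-only regions under every setting, but the settings reuse the same 4 lists. The medians of PA-only and WT-only regions were 31876 and 22717 bp in the main result. They were closer with equal lists (28746 and 26808 bp) and whenever a library was left out. The medians were 28190 and 24242 bp without PA 1, and 28446 and 25375 bp without PA 2. They were 30057 and 28094 bp without WT 1, and 33306 and 27722 bp without WT 2. The inside-gene share stayed from 49.3% to 52.9%. Of 62 named regions, 34 were members under all 10 alternatives and 12 were lost with equal lists, among them those at Acaca, Prlr, Pcx, Me1, Cntnap5b, Dpp10 and Grm7. With ends of every gene type 9 were lost, those of Pck1, Bcl3, Cyp2a4, Nfil3, Slco1a4 and the farther one at Insig1 included.

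The difference in the share of peaks away from gene ends, 1.43 points, was 0.0623 with equal lists and from -0.604 (without PA 2) to 3.46 points (without PA 1) when a library was left out. The labels do not say that replicate numbers pair the mice. With the replicate number as a block the differences were -0.811 points for PA 1 minus WT 1 and 3.66 points for PA 2 minus WT 2, with a mean of 1.43 (exact sign-flip p = 1, smallest possible 0.5). Causes of these movements were not tested. These alternatives, for the share only, were chosen after seeing the data. Read depth is unknown, so a missing WT call is no measure of closed chromatin, and the sequence features planned over the central 300 bases were not run.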
